A study of Mus musculus with 153 samples.

Results

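The 8 genes Dlx1, Dlx2, Dlx5, Dlx6, Lhx6, Sox6, Satb1 and Maf encode transcription factors of forebrain GABA interneurons, the cells that release the inhibitory transmitter GABA. They were taken by name, with no threshold on their values, and all 8 were found among the 22654 genes that the 6 count tables of the series share. The libraries came from dorsal hippocampus of mice with 1 of 3 genotypes, Camk2a.Cre/TRAPfl, Pvalb.Cre/TRAPfl or Sst.Cre/TRAPfl, called the Camk2a, Pvalb and Sst lines here. The floxed TRAP allele, shared by every animal, tags ribosomes in cells that express Cre, so that translating RNA of those cells can be pulled out of the tissue. Each line gave a purified, ribosome-bound fraction and a total lysate, in sets labelled 15 and 60 min. Mice stayed in the home cage, entered a new box without shock, or were shocked in it. The libraries used formed 36 groups of 3 to 6. The labels give neither age nor sex, and do not say how many animals went into a library, so the spread behind each p-value is that between libraries and may be partly technical.

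The 3 drivers set what each purified fraction can stand for. The Camk2a promoter drives Cre mainly in excitatory neurons, Pvalb marks fast-spiking basket and chandelier interneurons, and Sst marks dendrite-targeting interneurons, although Cre follows the driver gene's history in a cell and not only its present level. The lysate contains RNA from all cells present, glia and vessels included, while its label names neurons. In bulk RNA of this kind, fewer cells of a type and less RNA per cell cannot be told apart.

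Dlx genes are distal-less homeobox factors that act early in the ganglionic eminences, the embryonic source of forebrain interneurons. They lie in 2 pairs of neighbours, Dlx1 with Dlx2 and Dlx5 with Dlx6, and switch on genes of GABA synthesis. Lhx6, a LIM homeobox factor of the medial ganglionic eminence, acts downstream of them in future parvalbumin and somatostatin cells, Sox6 and Satb1 act later in the maturation of those cells, and Maf is a leucine zipper factor of the same lineage. Satb1, a chromatin organiser, is also found outside interneurons, including in excitatory neurons and lymphocytes.

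On mouse build GRCm38 with GENCODE M21 annotation, Dlx1 lies at chr2:71528113-71533981 on the plus strand and Dlx2 at chr2:71543408-71546754 on the minus strand. Dlx6 lies at chr6:6863334-6868568 on the plus strand and Dlx5 at chr6:6877805-6882085 on the minus strand. Lhx6 (chr2:36081953-36105408), Sox6 (chr7:115470872-116038796), Satb1 (chr17:51736187-51833290) and Maf (chr8:115682942-115707794) are all on the minus strand. Exons of Dlx1 share 335 bases with the antisense gene Dlx1as, and those of Dlx6 share 104 bases with Dlx6os2. The library kit did not mark the strand, so reads from these stretches cannot be assigned to one of the overlapping genes.

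RefSeq promoter windows (GRCm38.p6) were matched for Dlx1, Dlx2, Lhx6, Sox6 and Satb1. The 250 bases immediately before the start are shown for 3 of them whose window ends at the annotated gene, because the genes divide in the Camk2a line: Dlx2 and Lhx6 fell in its purified fraction and Satb1 did not, while all 3 rose in those of the interneuron lines. Windows lie on the minus strand at chr2:71546755-71547004 (Dlx2), chr2:36105409-36105658 (Lhx6) and chr17:51833291-51833540 (Satb1). Capitals mark matches, on either strand, to 6 short motifs. The homeodomain core was searched as TAATTA, and the binding motif of Sp factors as GGGCGG. The CAAT box was searched as CCAAT, and the TATA motif as TATAAA. For basic helix-loop-helix factors the first motif searched was CACGTG, and the other one searched was CAGCTG.
Dlx2: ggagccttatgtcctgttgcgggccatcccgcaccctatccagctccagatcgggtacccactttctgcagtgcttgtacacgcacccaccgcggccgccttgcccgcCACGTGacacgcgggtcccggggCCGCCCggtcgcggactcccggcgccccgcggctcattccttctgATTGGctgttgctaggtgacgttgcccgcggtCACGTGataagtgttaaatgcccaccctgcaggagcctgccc
Lhx6: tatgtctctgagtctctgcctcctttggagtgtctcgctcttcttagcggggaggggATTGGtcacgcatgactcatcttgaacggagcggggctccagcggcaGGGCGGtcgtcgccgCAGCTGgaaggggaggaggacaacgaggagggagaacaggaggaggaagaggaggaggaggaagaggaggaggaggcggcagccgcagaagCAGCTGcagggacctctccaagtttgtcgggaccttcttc
Satb1: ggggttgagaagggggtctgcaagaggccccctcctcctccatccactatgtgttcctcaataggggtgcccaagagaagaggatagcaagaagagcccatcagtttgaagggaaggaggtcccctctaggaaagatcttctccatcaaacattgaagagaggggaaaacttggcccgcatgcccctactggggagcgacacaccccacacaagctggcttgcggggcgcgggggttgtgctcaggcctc
The Dlx2 window held 2 matches to CACGTG, 1 to GGGCGG and 1 to CCAAT. The Lhx6 window held 2 matches to CAGCTG, 1 to GGGCGG and 1 to CCAAT, and the Satb1 window held 0 matches to any of the 6 motifs. The table gives 3 windows for Lhx6 and 5 for Satb1, so these counts hold for the window shown, and another Satb1 window held 3 matches to GGGCGG. No marked match overlapped another. Of all 32851 promoter windows cut to the same length, 6.02% held CACGTG, 13% CAGCTG, 32.7% GGGCGG, 33.85% CCAAT, 12.4% TATAAA and 4.84% TAATTA. These matches describe letters in a window and say nothing about which factor binds there.

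Total counts per library ran from 9043042 to 397228206 with a median of 71403674. At the lowest total, a purified Camk2a library of the 15 min shock group, 1 read equals 0.111 CPM (counts of a gene scaled to a common total per library), so values near 0 carry little information there. Purity was followed with the summed CPM of 32 marker genes of astrocytes, oligodendrocytes, microglia and endothelium, given as a percentage of the median of the lysates of the same table. It was 5.06 to 14.6% in purified Camk2a libraries and 21.4 to 66.1% in Pvalb, but 9.87 to 110% in Sst. It passed 50% in 3 Pvalb and 13 Sst libraries. All 4 purified Sst libraries labelled shock at 60 min, with 78.5 to 110%, stood with the lysates. Their Sst mRNA itself was 2.98 to 155 CPM, against 242 to 3535 in the 5 home cage libraries and 0.333 to 279 in the 4 shock lysates, so these libraries do not show the enrichment their label implies. Gad1 was 177.4 to 278 CPM in them and 351.5 to 524.5 in the shock lysates. A weak purification and an exchange of labels cannot be told apart from these values, so every direction drawn from them refers to the libraries labelled shock. Comparisons of lines and fractions that include purified Sst libraries were repeated without the libraries above 50%, a choice made after the data were seen, and the values are given where a call changed.

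Lhx6 was high in the Pvalb line, low in the Camk2a line and variable in the Sst line. Purified Pvalb libraries held 118 ± 40.9 CPM (SD, n = 13) at 15 min and 138 ± 11.2 (n = 16) at 60 min, with a range of 43 to 175 over both sets. Purified Sst libraries held 66.8 ± 50.2 (n = 12) and 54.2 ± 40.8 (n = 13), with a range of 2.45 to 146. Purified Camk2a libraries held 2.87 ± 1.76 (n = 10) and 1.54 ± 1.3 (n = 12), and none passed 6.05. The 75 lysates lay between 10.8 and 41.9, above every purified Camk2a library and below every purified Pvalb library. Sst libraries spread across the whole span.

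Sox6, the SRY-related factor needed for positioning and maturation of these interneurons, followed the same order. It reached 37 ± 12.2 and 40.8 ± 11.8 CPM in purified Pvalb libraries at 15 and 60 min, 18.6 ± 11.9 and 16.1 ± 5.82 in Sst, and 1.46 ± 0.948 and 1 ± 0.682 in Camk2a. Its lysates lay at 3.8 to 18.4. The highest purified Camk2a library, at 2.96, was below every lysate, and the Pvalb range of 17.9 to 65.7 touched the top of the lysates.

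Dlx5 stood in the purified interneuron fractions at 40.2 ± 12.9 and 46.1 ± 9.23 CPM in Pvalb and 32.9 ± 23.5 and 29.9 ± 18.4 in Sst at 15 and 60 min. Dlx1 reached 24.3 ± 8.93 and 27.6 ± 6.04 in Pvalb and 36 ± 25.3 and 28.5 ± 17.6 in Sst. Dlx2 reached 16 ± 5.97 and 13.2 ± 4.58 in Pvalb and 17.3 ± 11.2 and 16.9 ± 7.88 in Sst. For all 3, the means of the 2 interneuron lines differed by less than the SD of the Sst libraries. In purified Camk2a libraries the medians over both sets were 1.1 CPM for Dlx5, 1.58 for Dlx1 and 0.317 for Dlx2, with 0 counts in 3, 2 and 4 of 22 libraries.

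Dlx6 was scarce throughout. Its mean was 1.67 ± 0.939 and 1.63 ± 0.567 CPM in purified Pvalb libraries and 1.3 ± 1.03 and 1.38 ± 0.99 in Sst libraries at 15 and 60 min. Lysates averaged 0.39 ± 0.271 (n = 75), and 13 of 22 purified Camk2a libraries held 0 counts of it.

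Satb1 was the only one of the 8 whose mean in purified Camk2a libraries was not below that of the lysates. It reached 98.6 ± 25.5 CPM in purified Camk2a libraries at 15 min and 53.4 ± 16.2 at 60 min, beside lysates of the same line at 93.1 ± 16.7 and 48.8 ± 16.5. Pvalb libraries held 207 ± 51.6 and 210 ± 58.2, and Sst libraries 150 ± 70.7 and 100 ± 55.7. Purified and lysate ranges of the Camk2a line overlapped, at 54.4 to 136 against 70 to 120 in the 15 min set, whereas all 29 purified Pvalb libraries, at 106 to 308, lay above the Pvalb lysates at 33.8 to 83.2.

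Maf was 51.2 ± 25.5 and 47.2 ± 18 CPM in purified Pvalb libraries, 38.6 ± 26.1 and 20.8 ± 16.2 in Sst, and 2.83 ± 2.41 and 0.964 ± 0.637 in Camk2a at 15 and 60 min. Its lysates had the widest relative spread of the 8 genes outside Dlx6, 15.7 ± 10.1 CPM with a range of 2.62 to 53.2, so that purified Pvalb libraries, at 19.9 to 110, overlapped them.

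Levels were also divided by kilobases of exon, for a rough ranking of genes against each other. All annotated exons of a gene were merged for this length, which its expressed transcripts may not span, so the order depends on the annotation. In purified Pvalb libraries of both sets the order was Lhx6 (27 CPM per kb), Dlx5 (19.2), Satb1 (11), Maf (5.95), Dlx2 (5.07), Dlx1 (4.84), Sox6 (2.64) and Dlx6 (0.695). In Sst libraries Dlx5 (13.9 CPM per kb) and Lhx6 (12.5) led, followed by Satb1 (6.52), Dlx2 (5.98), Dlx1 (5.95), Maf (3.56), Sox6 (1.17) and Dlx6 (0.564). Neighbours such as Dlx2 and Dlx1 in either line differed by far less than their SDs. In the Camk2a line Satb1, at 3.89 CPM per kb, exceeded the next gene, Dlx5, at 0.797.

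**Figure D1:**
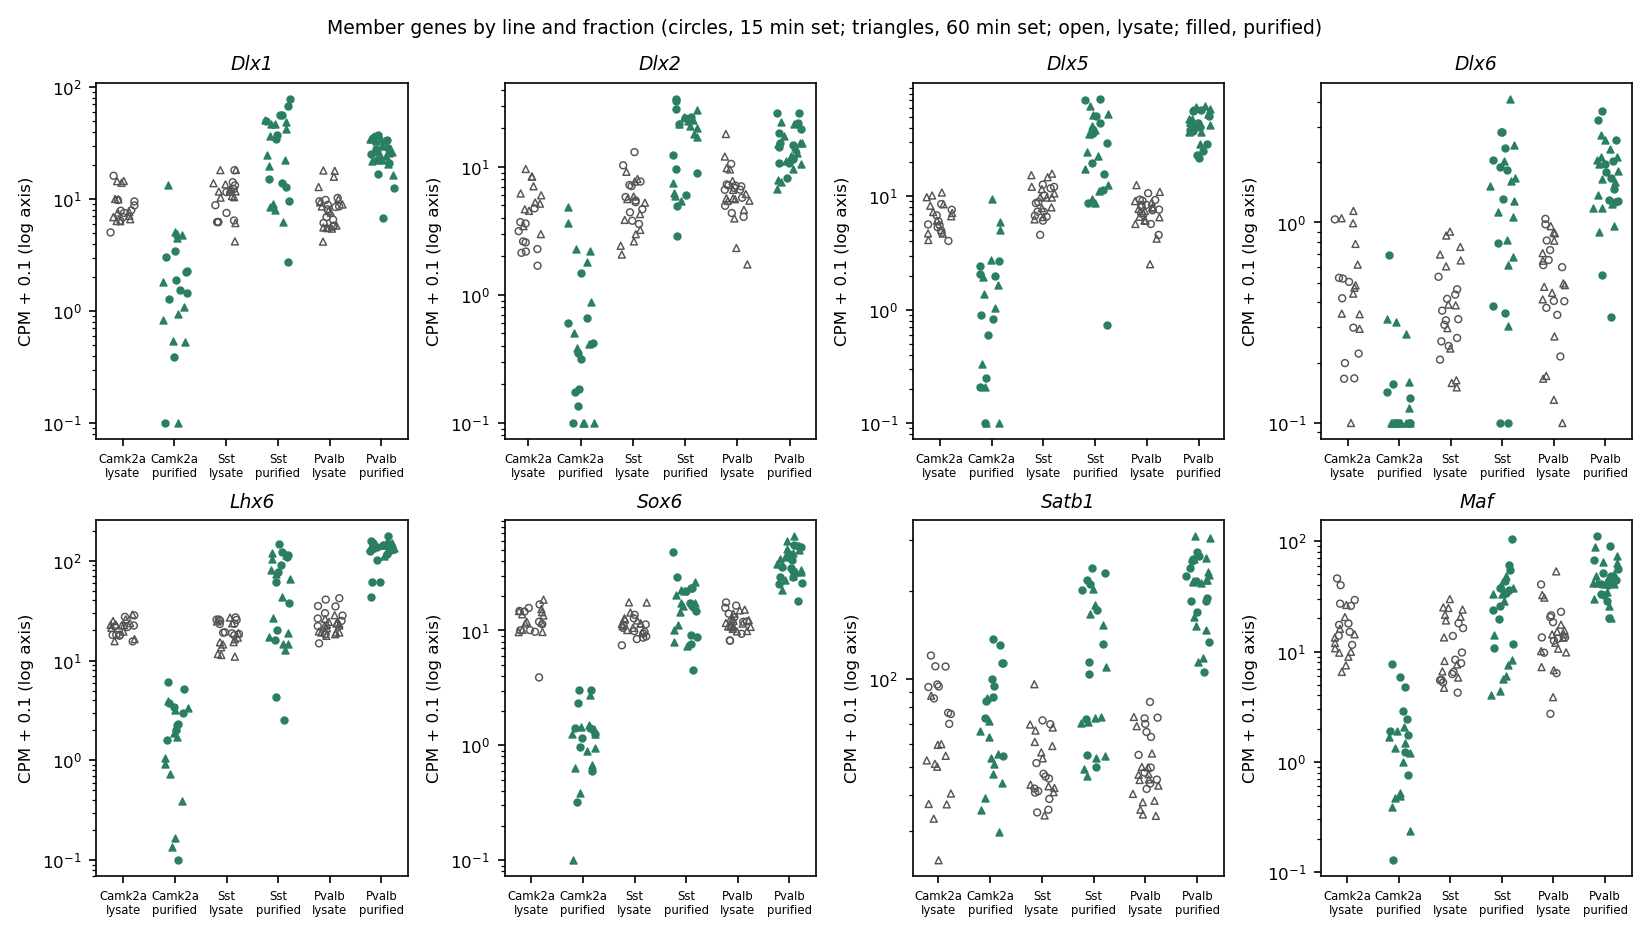
Each panel plots 1 gene as CPM plus 0.1 on a log axis, with 1 point for each library by line and fraction (circles 15 min, triangles 60 min, open lysate, filled purified). In 7 panels most purified Camk2a points sit below the lysates, while Satb1 at 29.7 to 136 CPM sits among them, and purified Sst points spread from the Pvalb range down to the lysates and, for Lhx6 (2.45 CPM against 10.8 in the lowest lysate), Dlx5 (0.631 against 2.42) and Dlx1 (2.64 against 4.07), below them.

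Whether the purified fraction holds more or less of each factor than the tissue around it was tested in each table, over all conditions, with edgeR's quasi-likelihood test and Benjamini-Hochberg adjustment over all genes tested (threshold 0.05). In the Pvalb line all 8 genes were higher in purified libraries in both sets. The background is wide, since 21.3% of 17179 tested genes were higher at 15 min and 28% at 60 min. At 60 min the log2 fold changes were 2.98 ± 0.16 (SE) for Dlx5, 2.96 ± 0.07 for Lhx6, 2.45 ± 0.14 for Satb1, 2.32 ± 0.46 for Dlx6, 2.08 ± 0.11 for Sox6, 1.93 ± 0.18 for Dlx1, 1.78 ± 0.27 for Maf and 1.32 ± 0.21 for Dlx2, and the highest adjusted p was 5.6e-05. At 15 min they ran from 1.58 ± 0.23 (Dlx2) to 2.67 ± 0.19 (Dlx5). At 60 min the median of the 8 was 2.20, beside -0.13 for all genes.

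Sst libraries gave 8 higher genes at 15 min, from 1.24 ± 0.23 for Sox6 to 2.66 ± 0.72 for Dlx6, where 23.6% of all genes were. At 60 min 6 were higher, with 31.2% of all genes, led by Dlx6 (1.72 ± 0.41), Dlx2 (1.67 ± 0.19) and Lhx6 (1.43 ± 0.25). Sox6 (0.39 ± 0.20, adjusted p = 0.094) and Maf (0.31 ± 0.45, adjusted p = 0.57) did not pass. Lysates of this set were not uniform. Camk2a mRNA was 227 to 1243 CPM in the home cage lysates, and Sst mRNA was 0.333 to 279 in the shock lysates. The part of this spread in the calls was not tested. Without the libraries whose non-neuronal sum passed 50%, which include the whole purified shock group, Sox6 passed too (0.77, adjusted p = 0.010). Satb1 (0.73 ± 0.24, adjusted p = 0.013) lost its call with DESeq2 (0.55, adjusted p = 0.063).

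The Camk2a line gave the opposite sign for 7 of the 8. At 15 min 6 were lower in purified libraries, where 27.8% of all genes were, and Satb1 was higher (0.42 ± 0.15, adjusted p = 0.028), where 22.9% were. Dlx6 (-2.62 ± 1.11) had an adjusted p of 0.055. At 60 min 6 were lower, where 35.3% of all genes were. Maf fell by 3.87 ± 0.33, Lhx6 by 3.54 ± 0.48, Sox6 by 3.47 ± 0.43, Dlx6 by 2.73 ± 1.08, Dlx2 by 1.97 ± 0.72 and Dlx1 by 1.47 ± 0.57 on the log2 scale. Dlx5 (-1.35 ± 0.69, adjusted p = 0.098) and Satb1 (0.42 ± 0.19, adjusted p = 0.058) did not pass. With a replicate block 7 were lower and 1 higher at 60 min, Dlx5 and Satb1 included, though the numbers were not shown to pair libraries. With home cage groups alone contrasted, within the fit of all libraries, 4 passed at 15 min and 3 at 60 min. The Satb1 call at 15 min also ended with DESeq2 (0.36, adjusted p = 0.051).

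**Figure D2:**
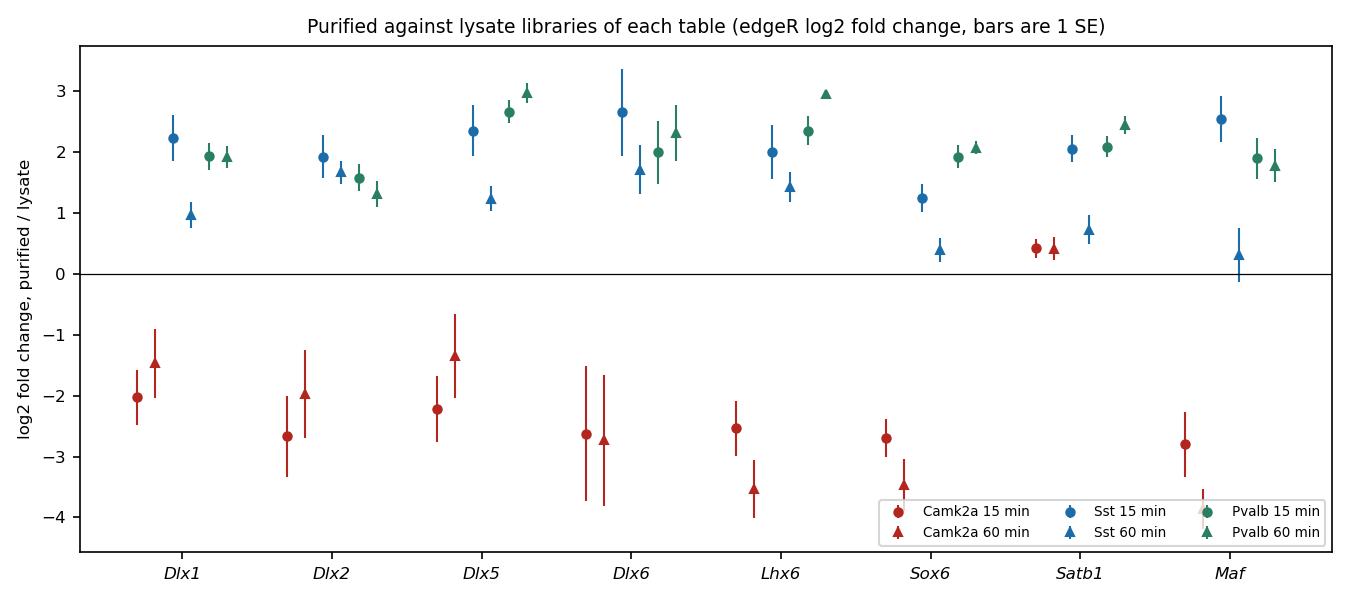
Points give the edgeR log2 fold change of purified over lysate libraries for each gene and table, and bars are 1 SE. Pvalb (green) and Sst (blue) points lie above 0 and Camk2a (red) points below it, except for Satb1, whose Camk2a points stand at 0.42 in both sets.

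Purified libraries of the 3 lines were compared directly within each time set. Each line is 1 table, so line and any difference between tables cannot be told apart. All 8 genes were higher in Pvalb than in Camk2a in both sets, where 27.7% of all genes were at 15 min and 35.2% at 60 min. At 60 min the log2 differences were 6.36 ± 0.47 for Lhx6, 5.89 ± 0.47 for Maf, 5.27 ± 0.37 for Sox6, 4.65 ± 0.77 for Dlx6, 4.23 ± 0.56 for Dlx5, 3.30 ± 0.52 for Dlx2, 3.19 ± 0.46 for Dlx1 and 1.85 ± 0.22 for Satb1. Sst exceeded Camk2a in 7 genes at 15 min, where 25.7% of all genes were higher, with Satb1 at 0.53 ± 0.23 (adjusted p = 0.063), and in all 8 at 60 min, where 31.7% were. Satb1 passed at 15 min, making 8, without the libraries above 50% (0.79, adjusted p = 0.0021) and with DESeq2 (0.53, adjusted p = 0.035). Differences at 60 min ran from 0.56 ± 0.21 for Satb1 to 4.59 ± 0.44 for Maf.

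The 2 interneuron lines differed from each other in fewer genes. At 15 min 1 of the 8, Sox6, was higher in Pvalb than in Sst (1.005 ± 0.26, adjusted p = 0.012), where 3.9% of all genes were. At 60 min Lhx6 (1.81 ± 0.34), Sox6 (1.47 ± 0.28), Maf (1.31 ± 0.33), Satb1 (1.30 ± 0.20) and Dlx5 (1.04 ± 0.45, adjusted p = 0.048) were higher in Pvalb, where 24.7% of all genes were, and Dlx1 (0.44 ± 0.38), Dlx2 (0.04 ± 0.43) and Dlx6 (0.65 ± 0.58) did not pass. Dlx5 did not pass with DESeq2 (1.02, adjusted p = 0.072).

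The choice of libraries changed this comparison. Without those above 50%, 3 genes passed at 60 min, Sox6 (1.09, adjusted p = 0.030), Maf (0.90, adjusted p = 0.043) and Satb1 (0.65, adjusted p = 0.044). Lhx6 was at 0.61 (adjusted p = 0.31), and Dlx5 turned to -0.06 (adjusted p = 0.99). That choice took out all 4 Sst shock libraries of the 60 min set, 3 of 5 home cage and 1 of 4 box libraries. Sst was then averaged over home cage and box, and Pvalb over all 3 conditions. With home cage groups alone contrasted, within the fit of all libraries, Sox6, Maf, Satb1 and Lhx6 passed at 60 min. At 15 min no member passed in the home cage contrast, where Sox6 was at 0.16 (adjusted p = 0.97). Without libraries above 50%, which took out 4 of 5 Sst shock libraries at 15 min, Sox6 was at 1.03 and did not pass. Levels in the 12 Sst libraries below 50% were 50.7 ± 12.7 CPM for Dlx1 and 24.4 ± 6.14 for Dlx2, against 27.8 ± 5.85 and 15 ± 5.42 in the 26 such Pvalb libraries. The test put Dlx1 at -1.08 (adjusted p = 0.11) at 15 min and -0.71 (adjusted p = 0.35) at 60 min, so this difference did not pass.

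**Figure D3:**
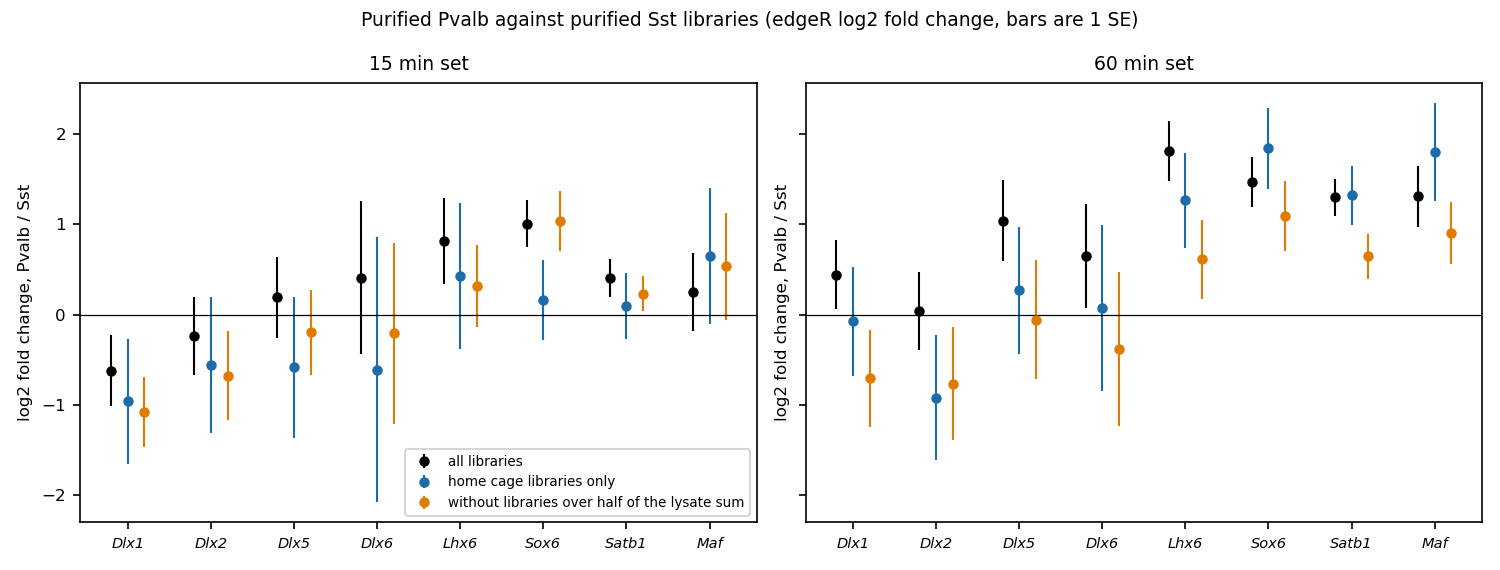
Log2 fold changes of purified Pvalb over purified Sst libraries are plotted by gene for the 15 and 60 min sets, bars being 1 SE. Black marks all libraries, and blue the home cage groups contrasted within the fit of all libraries. Orange marks the libraries whose non-neuronal sum stayed at or under 50% of the lysate median. In the 60 min set Lhx6, Sox6, Satb1 and Maf stay above 0 under all 3 choices, while Dlx1, Dlx2, Dlx5 and Dlx6 lie on both sides of it.

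Shock, box and home cage were compared within each purified fraction. The 4 Dlx genes of the Sst line at 60 min were lower in libraries labelled shock than in home cage libraries. Dlx1 was 24.4, 42, 19.5, 47 and 51.3 CPM in the home cage, 47.2, 22.4, 36.2 and 49.1 in the box and 7.88, 8.95, 6.16 and 8.4 after shock. No shock library reached the lowest value of the other groups. The log2 fold change of shock over home cage was -2.33 ± 0.35 (adjusted p = 0.0084). Dlx2 was 20.7, 17.8, 17.1, 22.5 and 21.6 CPM in the home cage, 24.2, 19.9, 27.6 and 23.1 in the box and 7.39, 5.84, 5.32 and 6.14 after shock, a change of -1.78 ± 0.18 (adjusted p = 0.0018). Its shock values again lay wholly below.

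Dlx5 (-1.97 ± 0.39, adjusted p = 0.016) and Dlx6 (-2.08 ± 0.54, adjusted p = 0.045) were lower as well, making 4 members where 2.15% of 16301 tested genes were lower. Lhx6 was 26.5, 80, 12.8, 73.4 and 105 CPM in the home cage and 14.7, 18.7, 17.2 and 14.5 after shock, so the groups overlapped through 1 home cage library (-1.98 ± 0.55, adjusted p = 0.055). It passed without that library, home cage replicate 3 (-2.25, adjusted p = 0.016), or without home cage replicate 1 (-2.18, adjusted p = 0.042). Sox6 (-0.02 ± 0.41), Maf (0.15 ± 0.85) and Satb1 (-0.89 ± 0.45, adjusted p = 0.28) did not pass. Maf was 4.26, 48, 3.96 and 33.2 CPM in the 4 shock libraries, falling into a low and a high pair.

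Against the box, Dlx1 (-2.45 ± 0.37), Dlx2 (-2.08 ± 0.19), Dlx5 (-2.07 ± 0.40) and Lhx6 (-2.55 ± 0.57) were lower after shock, where 4.56% of all genes were, and box against home cage called no member and 0% of genes. Purity differed between these groups as well. The shock lysates of the same set held 4.09 to 11.6 CPM of Dlx1, 2.32 to 5.75 of Dlx2, 6.16 to 14.6 of Dlx5 and 11.3 to 18.6 of Lhx6, so the purified shock libraries were near lysate level for these genes. The non-neuronal sum was 78.5 to 110% in the shock group against 26.8 to 81.5% in the home cage group and 31.1 to 70.5% in the box group. Home cage replicate 3, at 81.5%, lay within the shock range of that sum. Its Dlx1 and Dlx2 lay above every purified shock library, and its Lhx6 lay below them. Summed GABA neuron markers (6 of 6 genes detected) were 502 to 560 CPM after shock, 677 to 2647 in the home cage and 790 to 1055 in the shock lysates. Summed pyramidal markers were 3812 to 5864 CPM in the purified shock libraries, 3064 to 6786 in the home cage and 2271 to 3620 in the shock lysates. All 4 shock libraries lie above 50%, so no comparison without such libraries can be made. A covariate fit used the mean log2 CPM of the 32 non-neuronal markers, not their sum. In it Dlx1 (-1.91, adjusted p = 0.00074), Dlx2 (-1.68), Dlx5 (-1.45) and Lhx6 (-1.12, adjusted p = 0.033) passed and Dlx6 (-1.65, adjusted p = 0.061) did not. Shock and purity cannot be told apart in this group.

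Depth was uneven too, with home cage replicates 4 and 5 at 397228206 and 290656072 counts and the shock group at 54537212 to 94397069. Leaving out shock replicate 4 ended the calls of Dlx5 (adjusted p = 0.062) and Dlx6 (adjusted p = 0.12) and left 2. The Dlx6 call was near the threshold, and of all single removals those of box replicate 1 and home cage replicates 1 and 3 left it in place.

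At 15 min all 8 genes of the Sst line had lower means after shock than in the home cage (median log2 fold change -1.54, beside -0.02 for all genes), and none passed, where 1.21% of all genes were called. Sox6 (-1.57 ± 0.44, adjusted p = 0.084) came nearest. Of the 5 shock libraries, 4 lay above 50%, and replicate 1, at 22.5%, held 56 CPM of Dlx1 against 2.64 to 13.7 in the other 4. Without that library Dlx1 (-2.54, adjusted p = 0.028) and Sox6 (-1.77, adjusted p = 0.045) passed. Summed pyramidal markers (12 of 12 genes detected) were 4514 to 8319 CPM in the shock group, 829 to 3562 in the home cage group and 4667 to 5743 in the shock lysates, and their part in these differences was not tested.
Shock against box and box against home cage called 0% of genes there. The median log2 difference of the 8 between shock and box was -1.05, and the largest, Dlx1, was -1.32 ± 0.74 (adjusted p = 0.65).

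**Figure D4:**
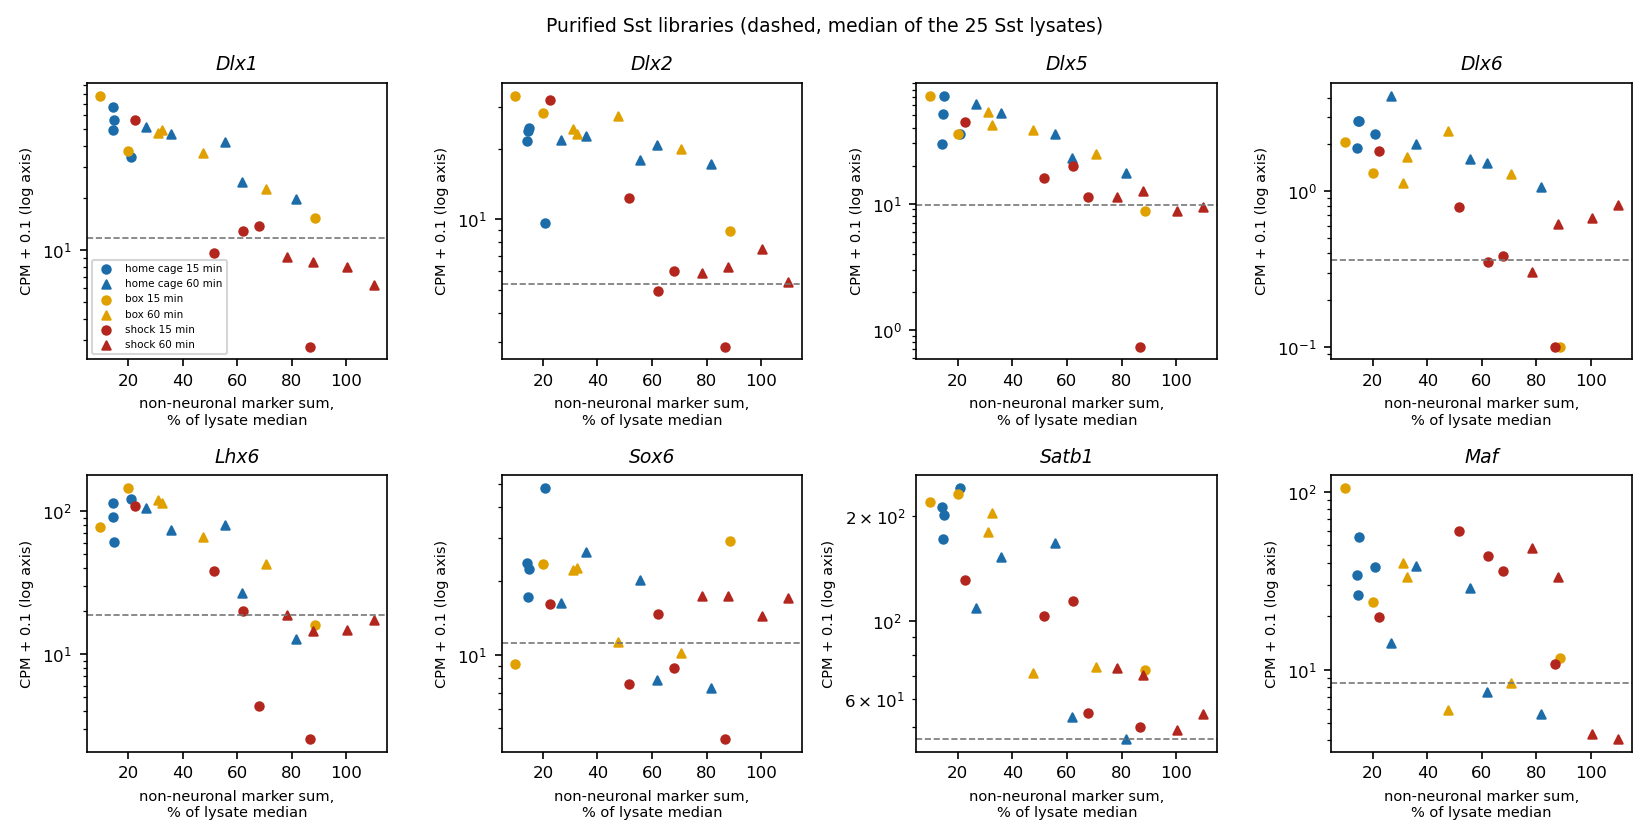
For the 25 purified Sst libraries, each gene's CPM plus 0.1 (log axis) is plotted against the non-neuronal marker sum as a percentage of the lysate median, coloured by condition, with the median of Sst lysates dashed. Dlx1, Dlx2, Dlx5 and Lhx6 are high at 9.87%. They lie near the lysate level in the 4 shock libraries of the 60 min set, at 78.5 to 110%. A home cage library of that set, at 81.5%, lies above those 4 for Dlx1 and Dlx2 and below them for Lhx6.

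In the Pvalb line at 60 min, Maf, Sox6 and Dlx1 were lower and Dlx2 was higher after shock than in the home cage. Maf was 41.8 to 89 CPM (median 57) in 6 home cage libraries and 19.9 to 43.9 (median 32.2) in 6 shock libraries, which overlapped slightly (-0.88 ± 0.24, adjusted p = 0.0090). Sox6 was 41.6 to 65.7 CPM (median 46.8) in the home cage and 22.5 to 37.7 (median 31.4) after shock, with no overlap (-0.71 ± 0.19, adjusted p = 0.0077). Dlx1 was 23.7 to 36.5 CPM (median 34.2) and 16.3 to 32.7 (median 22), which overlapped (-0.48 ± 0.18, adjusted p = 0.044). Dlx2 was 6.63 to 15.2 CPM (median 8.65) and 11 to 22.3 (median 14.3), which overlapped (0.66 ± 0.24, adjusted p = 0.038).

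The remaining members of the Pvalb line did not pass at 60 min. Satb1 was at -0.52 ± 0.21 (adjusted p = 0.064), Dlx6 at -0.52 ± 0.46, Dlx5 at 0.17 ± 0.18 and Lhx6 at 0.09 ± 0.11. Lhx6 was 112 to 155 CPM in the home cage and 129 to 153 after shock. The background was broad, with 15.3% of 16135 genes lower and 19.7% higher, beside 3 and 1 of the 8 members. Box against home cage and shock against box called 0% of genes, with Dlx2 at 0.70 ± 0.26 (adjusted p = 0.37) and Maf at -0.63 ± 0.26 (adjusted p = 0.19).

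The GC content of the libraries moved with these 2 groups. The trend of a library's log2 CPM deviations over transcript GC content was -0.58 to -0.32 per 10 percentage points in the home cage group and -0.12 to 0.84 in the shock group, with no overlap. Dlx2, which rose, has 58.3% GC, while Maf (47.4%), Sox6 (46.1%) and Dlx1 (54.6%), which fell, lie lower. Of the members not called, Satb1 has 44.8%, Dlx6 49.4%, Dlx5 54.7% and Lhx6 56.2%. With GC offsets no member passed, Dlx2 was at -0.03 (adjusted p = 0.96), Sox6 at -0.29 (adjusted p = 0.42), Maf at -0.57 (adjusted p = 0.14) and Dlx1 at -0.81 (adjusted p = 0.060). Totals were 99612416 to 204139576 in the home cage and 55234644 to 167434187 after shock. The non-neuronal sum overlapped, at 23.9 to 39.2% and 26.8 to 48%. Neuronal markers moved as well. Summed somatostatin neuron markers (7 genes) were 1237 to 1968 CPM in the home cage and 2002 to 3189 after shock, where 1 of the genes was at 0, with no overlap, and Sst mRNA was 183 to 464.9 and 523.5 to 869.5 CPM. Summed pyramidal markers (12 genes) had medians of 1224 and 1850 CPM, and GABA neuron markers (6 genes) of 4858 and 3561. The part of GC content and of these markers in the calls was not tested beyond the GC offsets. The calls of Dlx1 and Dlx2 were near the threshold. The Dlx1 call stayed without box replicate 2, home cage replicate 2 or 6 or shock replicate 1 or 2, and ended without any other single library, up to an adjusted p of 0.13 without shock replicate 6 (-0.36). The Dlx2 call stayed without any single box library, shock replicate 1, 2 or 6 or 1 home cage library that carries no number of its own, and ended without any other, up to an adjusted p of 0.11 without shock replicate 4 (0.51). Maf and Sox6 kept an adjusted p under 0.05 without any 1 library.

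**Figure D5:**
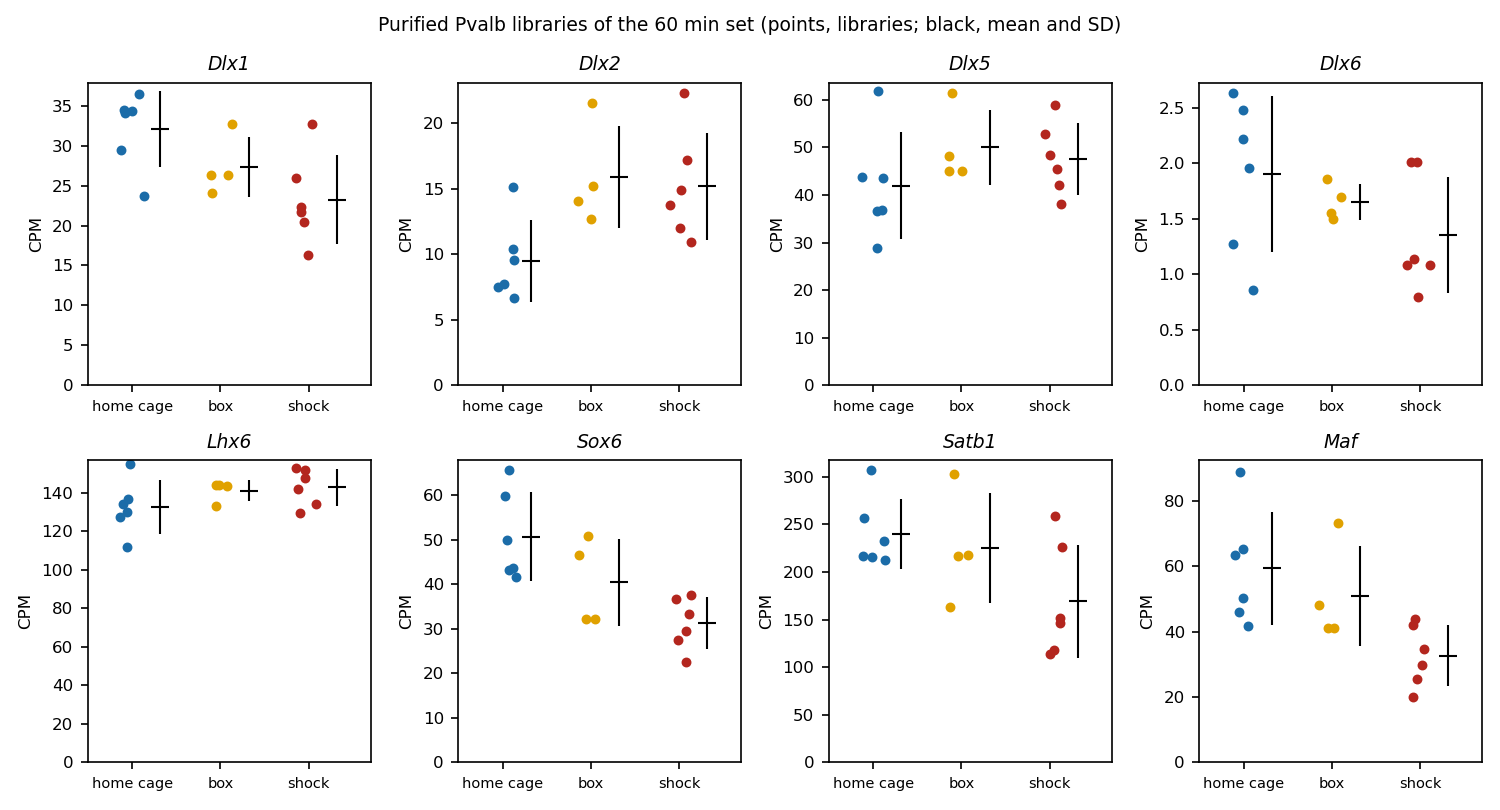
CPM of each gene are plotted for the 16 purified Pvalb libraries of the 60 min set by condition, with 1 point a library and the mean and SD in black. Sox6 shock values, at 22.5 to 37.7, lie below all home cage values, and box values, at 32.1 to 51, overlap both.

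No other condition contrast called a member. In the Pvalb line at 15 min 0% of genes were called in any of the 3 comparisons, and the largest member difference was Maf, shock against home cage (-0.93 ± 0.40, adjusted p = 0.29). In the Camk2a line Dlx6 failed the filter on low counts, and none of the other 7 passed. There 0% of genes were called at 15 min in any comparison, 2.3% in shock against home cage at 60 min and 0% in the other comparisons of that set. The only member with a narrow interval in this line was Satb1, at -0.00 ± 0.29 at 15 min and 0.08 ± 0.28 at 60 min for shock against home cage. SEs of the other members were 0.89 to 1.77, which leaves even large changes undetectable at these levels.

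Lysates, which hold all cells, showed no member called by condition. At 15 min 0.128%, 0.0128% and 0% of genes were called for shock against home cage, box against home cage and shock against box, and at 60 min 0% were called in all 3. The log2 differences of shock against home cage at 60 min were -0.06 ± 0.10 for Lhx6, -0.05 ± 0.11 for Sox6, -0.07 ± 0.18 for Satb1, -0.02 ± 0.19 for Dlx5, -0.30 ± 0.21 for Dlx1, -0.43 ± 0.23 for Dlx2, 0.40 ± 0.32 for Maf and -0.58 ± 0.49 for Dlx6.

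The shock response was compared between lines at 60 min, a comparison added after the data were seen. Lhx6 responded differently in Pvalb and Sst (2.13 ± 0.76, adjusted p = 0.046), where 13.5% of all genes were higher, and Dlx1 in Sst and Camk2a (-3.80 ± 1.02, adjusted p = 0.024), where 2.98% were lower. Of 41 refits without 1 library, 25 ended the Lhx6 call, and the Dlx1 contrast lost its call without Camk2a home cage replicate 4, Camk2a shock replicate 5 or Sst shock replicate 3. Both rest on the Sst shock libraries with lysate-like marker sums. With the mean log2 CPM of the non-neuronal markers as a covariate neither passed (Lhx6 1.48, adjusted p = 0.16, and Dlx1 -3.19, adjusted p = 0.10). Pvalb against Camk2a called no member, where 37.6% of genes were called, and Dlx1 came nearest (-1.88 ± 0.92, adjusted p = 0.10).

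Between the sets labelled 60 and 15 min, which are separate tables, no member passed. For the shock response 5.71% of genes were called in Camk2a, 0% in Pvalb and 0% in Sst. For home cage libraries, which had no treatment to time, 33.3% of genes were called in Camk2a, 0.391% in Pvalb and 16.2% in Sst. Satb1 was lower at 60 min in home cage Camk2a libraries (-0.82 ± 0.32) with an adjusted p of 0.0504, and in home cage Sst libraries (-1.24 ± 0.44) with an adjusted p of 0.055. All 8 members had lower means at 60 min in the Sst home cage libraries. Of those, 3 of 5 at 60 min and 0 of 4 at 15 min had a non-neuronal sum above 50%, and without them Satb1 was at -0.86 (adjusted p = 0.34).

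Other genes of the lineage were read from 5 lists. Among 9 other factors of the medial ganglionic eminence, 3 were higher in purified than lysate Pvalb libraries at 60 min, with Sp9 at 2.73 ± 0.22, and 4 were lower, led by Nkx6-2 (-2.20 ± 0.18), a gene that oligodendrocytes also express. At 60 min in Sst libraries 3 were higher and 3 lower, the latter being St18 (-1.61 ± 0.23), Etv1 (-1.80 ± 0.27) and Zeb2 (-1.63 ± 0.26). In the Camk2a line 0 were higher and 4 of 9 lower, Nkx6-2 (-2.90 ± 0.38) and St18 (-0.91 ± 0.24) among them. These counts, and those of the next lists, stand beside 4809 higher and 5566 lower of 17167 genes in Pvalb, 5262 higher and 4768 lower of 16878 in Sst, and 3664 higher and 5839 lower of 16519 in Camk2a. Against that background 3 of 9 higher is near the share of all genes in both interneuron lines.

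Factors of the caudal ganglionic eminence, which gives rise to other interneurons, were read in the same way. Of 5, Npas1 (-1.58 ± 0.17) and Prox1 (-1.26 ± 0.16) were lower and Nr2f1 (0.57 ± 0.13) higher in purified Pvalb libraries at 60 min. Purified Sst libraries held more Npas1 (2.08 ± 0.36), so that it differed between the lines at 60 min (-2.97 ± 0.30 for Pvalb against Sst, adjusted p = 1.5e-10), opposite in sign to all 5 called members. Prox1, also a marker of dentate granule cells, was lower in Sst (-0.90 ± 0.15).

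Transcripts that share the members' loci moved with them in the Pvalb line at 60 min. Dlx1as (2.06 ± 0.11) and Dlx6os1 (2.36 ± 0.16) were higher in purified libraries beside Dlx1 (1.93 ± 0.18) and Dlx6 (2.32 ± 0.46). In Sst libraries at 60 min Dlx6os1 was lower in purified libraries (-1.07 ± 0.34, adjusted p = 0.0095) while Dlx6 was higher (1.72 ± 0.41), and Dlx1as was higher (1.09 ± 0.14). Of all 11 genes in this list, which also holds paralogs, 6 were higher and 2 lower in Pvalb, and 4 higher and 2 lower of 10 tested in Sst. In the Camk2a line 3 of 10 were higher and 4 lower, with Dlx1as (-2.15 ± 0.29) and Dlx6os1 (-3.04 ± 0.66) lower and Mafg (0.60 ± 0.16), a small Maf protein, higher.

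Excitatory neuron factors had the opposite sign to most members in the Camk2a and Pvalb lines. Of 10, 8 were higher in purified Camk2a libraries at 60 min, led by Neurod2 (1.62 ± 0.13) and Emx1 (1.12 ± 0.20), and 7 were lower in Pvalb, led by Fezf2 (-1.69 ± 0.11) and Neurod6 (-1.69 ± 0.13). The exception in Pvalb was Mef2c, a factor used in both classes, which was higher (2.56 ± 0.16). In Sst 2 were higher and 6 lower. Of 8 genes described as targets of the members, all 8 were higher in Pvalb at 60 min (Slc32a1, the vesicular GABA transporter, 3.97 ± 0.14, and Gad1, the main GABA-synthesising enzyme, 3.21 ± 0.13), 5 in Sst, and 7 were lower in Camk2a. In the Sst libraries labelled shock at 60 min 5 of the 8 were lower than in the home cage, where 350 of all 16301 genes were. Gad2 was lower by 2.69 ± 0.54 and Sst by 4.93 ± 1.23 on the log2 scale. Gad1, Gad2, Slc32a1, Erbb4 and Sst of this list are also among the markers of GABA and somatostatin neurons. Non-neuronal sums were 78.5 to 110% in these shock libraries, so shock and purity cannot be told apart here.

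Across the 36 group means of log2 CPM, the 8 members were most alike among Dlx1 and Dlx5 (Pearson r = 0.969) and Lhx6 and Sox6 (0.961). Satb1 stood apart, with r of 0.346 to 0.56 to the other 7. Points share line, fraction, table and depth, so these values are a description. Of 12138 genes open to the comparison, those nearest to Dlx1 were Sox1 (0.981), Gad2 (0.955) and Pnoc (0.953), to Dlx2 Pnoc (0.968), Snx8 (0.958) and Sncg (0.954), to Dlx5 Sox1 (0.974), Sp9 (0.967) and Gna14 (0.960), and to Dlx6 Gna14 (0.939), Sp9 (0.932) and Th (0.927). Nearest to Lhx6 were Nxph1 (0.976), Crhbp (0.975) and Spsb4 (0.966), and near Sox6 were Adm (0.965) and Nxph1 (0.965). Nearest to Satb1 were Blcap (0.967), Etl4 (0.956) and Mtss1 (0.946), and nearest to Maf were Sox2 (0.958), Rbms3 (0.950) and Npas3 (0.936).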

How the data were processed

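The deposited values are raw read counts per gene symbol, 1 table for every line and set (6 in all). The submitters' processing notes name build GRCm38 and the tools featureCounts, DESeq2 and STAR (2.7.7a), without their roles. Groups and replicate numbers came from the labels. Of all count columns, 3 matched a group but no single sample, and 2 samples had no matched column and are not analysed here. CPM were computed over all counts listed.

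Tests used edgeR 4.0.16 in R 4.3.3 (filterByExpr, TMM, robust estimateDisp and glmQLFit, glmQLFTest), with Benjamini-Hochberg adjustment over all genes tested and a threshold of 0.05. The SE is the log2 fold change over the square root of F. The fitting function was also run on simulated counts in which few genes changed, unlike the fraction and line contrasts here. Purified libraries of a table were fitted over 3 conditions, lysates of a set over 3 lines, and lines over the purified libraries of a set. Members and lists were chosen with earlier results of these data known. All 8 members are named in each comparison. Other genes were named by smallest p, up to 4 a list, or as the 3 highest Pearson r over 36 group means of log2 CPM (prior count 2, mean of at least 1 CPM). Alternatives were DESeq2 1.42.0, its size factors, no filter, a replicate block, GC offsets, each library left out and leaving out libraries with a non-neuronal sum above 50%. Others were a contrast of home cage groups alone within the full fit, and the mean log2 CPM of the non-neuronal markers as a covariate. GC content and exon lengths came from GENCODE M21 and promoters from RefSeq (GRCm38.p6). A few genes that these rules name are not reported here. Every pair of libraries in a group differed by more than sampling noise (smallest reduced chi-square 20.1).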

Additional observations from a re-analysis of the deposited data

Results flagged for a closer look

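Of 216 combinations of member and group with 4 to 6 libraries, 14 had 1 library far from the others of its group, and chance gives about 1 in 20. In purified Camk2a libraries, shock replicate 2 at 15 min held 1.38 CPM of Dlx2 (others 0 to 0.0841) and 0.586 of Dlx6 (others 0 to 0.0421). Home cage replicate 3 at 60 min held 4.97 of Dlx1 (others 0.427 to 0.736) and 0.219 of Dlx6 (others 0 to 0.0189), and home cage lysate replicate 3 held 13.9 of Dlx1 (others 6.51 to 7.47). Shock replicate 5 at 60 min held 9.29 of Dlx5 (others 0.107 to 2.66), and shock lysate replicate 5 held 15.5 of Lhx6 (others 22.4 to 23.6).

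In the Pvalb line, purified home cage replicate 4 at 15 min held 22.8 CPM of Dlx5 (others 37.9 to 40.5), and purified box replicate 3 at 60 min held 133 of Lhx6 (others 143 to 144). Maf was 40.5 in shock lysate replicate 4 at 15 min (others 2.62 to 13.3) and 53.2 in shock lysate replicate 3 at 60 min (others 6.68 to 14.2). In the Sst line, purified shock replicate 1 at 15 min held 56 of Dlx1 (others 2.64 to 13.7). Sox6 was 17.4 in box lysate replicate 2 at 60 min (others 10.4 to 11.4) and 14.3 in purified shock replicate 1 at 60 min (others 17 to 17.3).

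The shock response at 60 min differed between lines for Dlx1, by -3.80 on the log2 scale between Sst and Camk2a (adjusted p = 0.024), and for Lhx6, by 2.13 between Pvalb and Sst (adjusted p = 0.046). Both calls rest on the Sst shock libraries with lysate-like marker sums. Neither passed with the mean log2 CPM of the non-neuronal markers as a covariate or with a replicate block.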

How the results depend on the processing

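Of 45 counts of members called, 33 stayed within 1.5 times under each alternative other than leaving out a library. Purified against lysate gave 4 (15 min) and 3 (60 min) members in the Camk2a line with home cage groups alone contrasted, against 7 and 6. For Pvalb against Sst, 0 passed at 15 min with home cage groups alone contrasted, against 1. Sox6 also lost that call without libraries above 50%. At 60 min 3 passed without libraries above 50%, against 5, and Dlx5 reversed to -0.0561. For shock against home cage in Pvalb at 60 min, 4 became 2 with both conditions fitted alone, 2 with no filter, 0 with GC offsets, where Dlx2 reversed to -0.0327, and 2 to 5 with a library left out. In Sst it became 2 to 5 at 60 min with a library left out, and at 15 min 0 became 2 with DESeq2 and 0 to 2 with a library left out. For home cage libraries at 60 against 15 min, 0 became 1 in Camk2a with DESeq2, with its size factors and with no filter (0 to 1 with a library left out), 1 in Pvalb with the non-neuronal covariate, and 2 with DESeq2 and 1 with its size factors in Sst (0 to 2 with a library left out). The shock response of Pvalb against Sst lost its 1 call with DESeq2 size factors, no filter and the covariate (0 in each), and gave 0 to 1 with a library left out. That of Sst against Camk2a gave 0 with the covariate and 0 to 3 with a library left out, and Pvalb against Camk2a 0 to 2. Apart from the alternatives that leave libraries out, where there are fewer samples, the cause of these changes was not tested.

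Replicate numbers could not be shown to pair libraries, and differently numbered libraries were not compared. Purified and lysate libraries of 1 condition and number correlated at -0.82 to 0.767 in their deviations from group means. Their medians by line and set were -0.103 to 0.247. In the Camk2a line the correlations were 0.0911 to 0.419 at 15 min and -0.152 to 0.434 at 60 min. Same-numbered libraries of 1 fraction across conditions lay at -0.822 to 0.733. With a replicate block, shock against home cage in Pvalb at 60 min gave 2 members, and in Sst at 60 min 1, against 4 in each. It gave 8 members for purified against lysate Camk2a libraries at 60 min, against 6, with Satb1 higher (0.41, adjusted p = 0.010) and Dlx5 lower (-2.53, adjusted p = 0.024). The block gave 1 for Camk2a home cage libraries at 60 against 15 min and 0 for the shock responses of Pvalb against Sst and Sst against Camk2a. Low counts limit Dlx6 throughout and every member but Satb1 in the Camk2a line. Line and set differ between tables, and purity differs between conditions in the Sst line.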
